A study of Mus musculus with 15 samples.

Results

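The major histocompatibility complex (MHC) and antigen presentation genes described here are 31 of the 51826 genes in the expression tables of mouse mammary tumors and control mammary glands. They were taken by symbol and known function, with earlier results of these data known: the MHC class I and class II chains, the proteins that cut, carry and load their peptides, and the regulators of both sets. The class I route has 21 members. These are the light chain B2m, the heavy chains H2-K1, H2-D1, H2-Q4, H2-Q6, H2-Q7, H2-T22, H2-T23 and H2-M3, the loading genes Tap1, Tap2, Tapbp, Erap1, Calr, Canx and Pdia3, the immunoproteasome subunits Psmb8, Psmb9 and Psmb10, and the regulators Nlrc5 and Irf1. The class II route has 10 members, which are the chains H2-Aa, H2-Ab1 and H2-Eb1, the peptide exchange factors H2-DMa, H2-DMb1, H2-DMb2, H2-Oa and H2-Ob, the protease Ctss and the regulator Ciita. All 31 passed the filter on low values in each of the 6 comparisons.

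RNA-seq was performed on 15 libraries of 13 mice, all labelled strain FVB. The control glands were whole mammary glands of 4 mice (133, 392, 417_3 and 517_3) that carry MMTV-Cre alone, a Cre recombinase under the mouse mammary tumor virus promoter. Trim24COE mice carry the same MMTV-Cre together with a transgene of Flag-tagged mouse Trim24, from which Cre removes a floxed stop. The transgene is a single-copy insertion. The labels class 3 of the tumors as carcinosarcoma (mice 64, 567 and 897) and 3 as carcinoma (mice 89, 273_5 and 3956). The 3 non-TRIM24 tumors (mice 219, FVB001 and FVB002) were spontaneous carcinomas whose genotype is labelled unknown. In the study's supplement the Trim24COE mice with tumors differ in age, some carried more than 1 tumor, and for all but mouse 3956 the class is entered as a call made from the RNA-seq itself, so the classes are not independent of these data. The pathologists' readings there differ from each other for carcinomas 89 and 3956 and carcinosarcoma 567. The study describes the control mice as matched in age and the non-TRIM24 tumors as coming from FVB or FVB/129 mice. All non-TRIM24 tumors were sequenced in batch 2 and all other mice in batch 1, with repeat libraries of control gland 133 and carcinoma 3956 in batch 2. Apart from the repeat libraries each mouse gave 1 library, and values below follow the order of mice given here.

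Almost all nucleated cells display peptides from their own proteins on class I molecules, a heavy chain paired with B2m. The proteasome cuts the peptides, the Tap1 and Tap2 transporter moves them into the endoplasmic reticulum, and a loading complex fits them onto the heavy chain, where CD8 T cells and NK cells read them. Class II molecules are made mainly by macrophages, dendritic cells and B cells and display peptides of engulfed material to CD4 T cells. Cathepsin S, the product of Ctss, trims the invariant chain from class II, H2-DM exchanges the peptide, and H2-O holds H2-DM back. Nlrc5 is the coactivator of class I genes and Ciita that of class II genes, and both act on promoters with the same X and Y boxes. Whole tumors and glands were measured, so fewer cells of a type and less RNA per cell cannot be told apart.

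Of the members, 21 lie in the MHC region of chromosome 17 between positions 33915899 and 37274484 (GRCm38), a span of 3.36 Mb, and 10 lie on other chromosomes. Promoter sequences of 27 members were matched in RefSeq (GRCm38.p6). The 180 bases before the RefSeq start of 7 members are printed below. An X box core and a Y box are found in B2m, H2-K1 and H2-Q7 of class I, H2-Aa and H2-Eb1 of class II and H2-Ob, which was lower in tumors. Ctss, which was higher, holds neither box and is printed beside them. Each is written 5′ to 3′ on the gene's own strand. Capitals mark matches on either strand to the Y box (CCAAT, read as ATTGG on the other strand), the X2 box core (TGACG), the X1 box core (AGCAAC), the interferon-stimulated response element (GAAANNGAA), the gamma-activated site (TTCNNNGAA) and an NF-kB motif.
B2m, chr2:122147507-122147686, + strand: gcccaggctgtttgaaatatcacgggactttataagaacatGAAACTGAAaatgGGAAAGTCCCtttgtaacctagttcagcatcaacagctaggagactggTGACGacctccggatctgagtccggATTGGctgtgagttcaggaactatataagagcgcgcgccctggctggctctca
H2-K1, chr17:34000348-34000527, - strand: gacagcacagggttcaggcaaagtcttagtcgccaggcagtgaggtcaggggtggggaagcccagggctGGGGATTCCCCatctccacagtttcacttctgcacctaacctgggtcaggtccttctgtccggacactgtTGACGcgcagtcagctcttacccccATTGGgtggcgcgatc
H2-Q7, chr17:35438975-35439154, + strand: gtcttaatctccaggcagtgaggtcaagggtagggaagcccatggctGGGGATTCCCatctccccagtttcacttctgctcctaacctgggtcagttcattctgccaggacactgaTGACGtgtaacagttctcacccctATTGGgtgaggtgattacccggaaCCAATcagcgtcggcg
H2-Aa, chr17:34287824-34288003, - strand: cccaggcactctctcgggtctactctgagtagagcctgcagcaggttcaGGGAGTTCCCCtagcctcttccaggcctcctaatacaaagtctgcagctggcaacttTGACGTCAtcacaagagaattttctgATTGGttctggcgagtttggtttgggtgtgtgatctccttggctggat
H2-Eb1, chr17:34305687-34305866, + strand: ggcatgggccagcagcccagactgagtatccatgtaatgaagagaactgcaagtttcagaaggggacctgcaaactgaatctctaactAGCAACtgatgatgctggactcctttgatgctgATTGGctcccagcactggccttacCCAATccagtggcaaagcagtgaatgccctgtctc
H2-Ob, chr17:34238725-34238904, + strand: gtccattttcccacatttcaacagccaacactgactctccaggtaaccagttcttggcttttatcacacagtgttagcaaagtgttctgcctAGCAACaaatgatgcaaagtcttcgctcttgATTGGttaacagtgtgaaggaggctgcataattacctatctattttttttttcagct
Ctss, chr3:95526606-95526785, + strand: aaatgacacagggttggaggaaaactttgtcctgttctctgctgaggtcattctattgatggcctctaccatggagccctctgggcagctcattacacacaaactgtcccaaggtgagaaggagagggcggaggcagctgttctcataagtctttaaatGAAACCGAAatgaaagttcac

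Within 250 bases before the start, 22 of the 27 member promoters held a Y box, against 33.8% of all 32851 promoters. The X2 box core was in 12 of 27 members against 17.8% of promoters, and the NF-kB motif was in 11 of 27 against 7.25%. The X1 box core was in 4 of 27 against 12.2%, the interferon-stimulated response element in 5 of 27 against 7.13%, and the gamma-activated site in 4 of 27 against 7.02%. B2m, H2-K1, H2-Q7 and H2-Aa each carried an X2 box core ahead of a Y box, whereas H2-Eb1 and H2-Ob carried an X1 box core ahead of a Y box. Of these, H2-K1, H2-Q7 and H2-Ob passed the test downward in a comparison and B2m, H2-Aa and H2-Eb1 did not pass. Any part of the boxes in the levels was not tested. The Ctss stretch held an interferon-stimulated response element and no X or Y box. These matches are letters in a window and not measured binding sites.

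The values are TPM, a transcript abundance scaled for gene length and for the library's total, and fold changes are on the log2(TPM + 1) scale with the standard error from limma. The TPM of each library added to between 999999 and 1000001, so the read depth behind a value is unknown. The members together took 0.596% to 1.71% of all TPM per library. Trim24 itself, the overexpressed gene, was at 14.5, 18.4, 22.4 and 15.9 TPM in the control glands, 10.6, 12.02 and 14.5 TPM in the carcinosarcomas, 24.1, 13.9 and 16.4 TPM in the carcinomas and 5.34, 9.34 and 10.04 TPM in the non-TRIM24 tumors, so that its level did not separate Trim24COE tumors from controls (exact permutation test, two-sided, p = 0.31). The labels of the Trim24COE tumors are therefore not checked by this gene. In the repeat libraries, 0 of 31 members differed over 2-fold from the first library of the same mouse.

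In the Trim24COE carcinosarcomas 10 of 21 genes of the class I route fell relative to the control glands, where 13.1% of all genes tested fell. They include 6 of the 8 heavy chains, both transporter genes and the coactivator Nlrc5. Calls were lost when a single mouse was left out and when a leukocyte covariate was added. Without carcinosarcoma 567, 2 of the 31 members passed, beside 10.9% of all genes. With the covariate 0 passed, beside 0.373% of all genes, and the median log2 difference of the members was -0.95, against -0.71 without it. The part of leukocytes in these calls was not tested beyond this. On the class II side the protease gene Ctss rose 7.998-fold, and the class II chains had positive differences that did not pass the test. The carcinomas differed among themselves: in mouse 3956 B2m, H2-K1, Tap1 and Nlrc5 were as low as in the carcinosarcomas, and in mouse 89 Tap1 and Nlrc5 were above every control gland. The 3 comparisons of Trim24COE tumors with controls use the same 4 glands, and the comparison of all 6 tumors contains the other two.

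**Figure D1:**
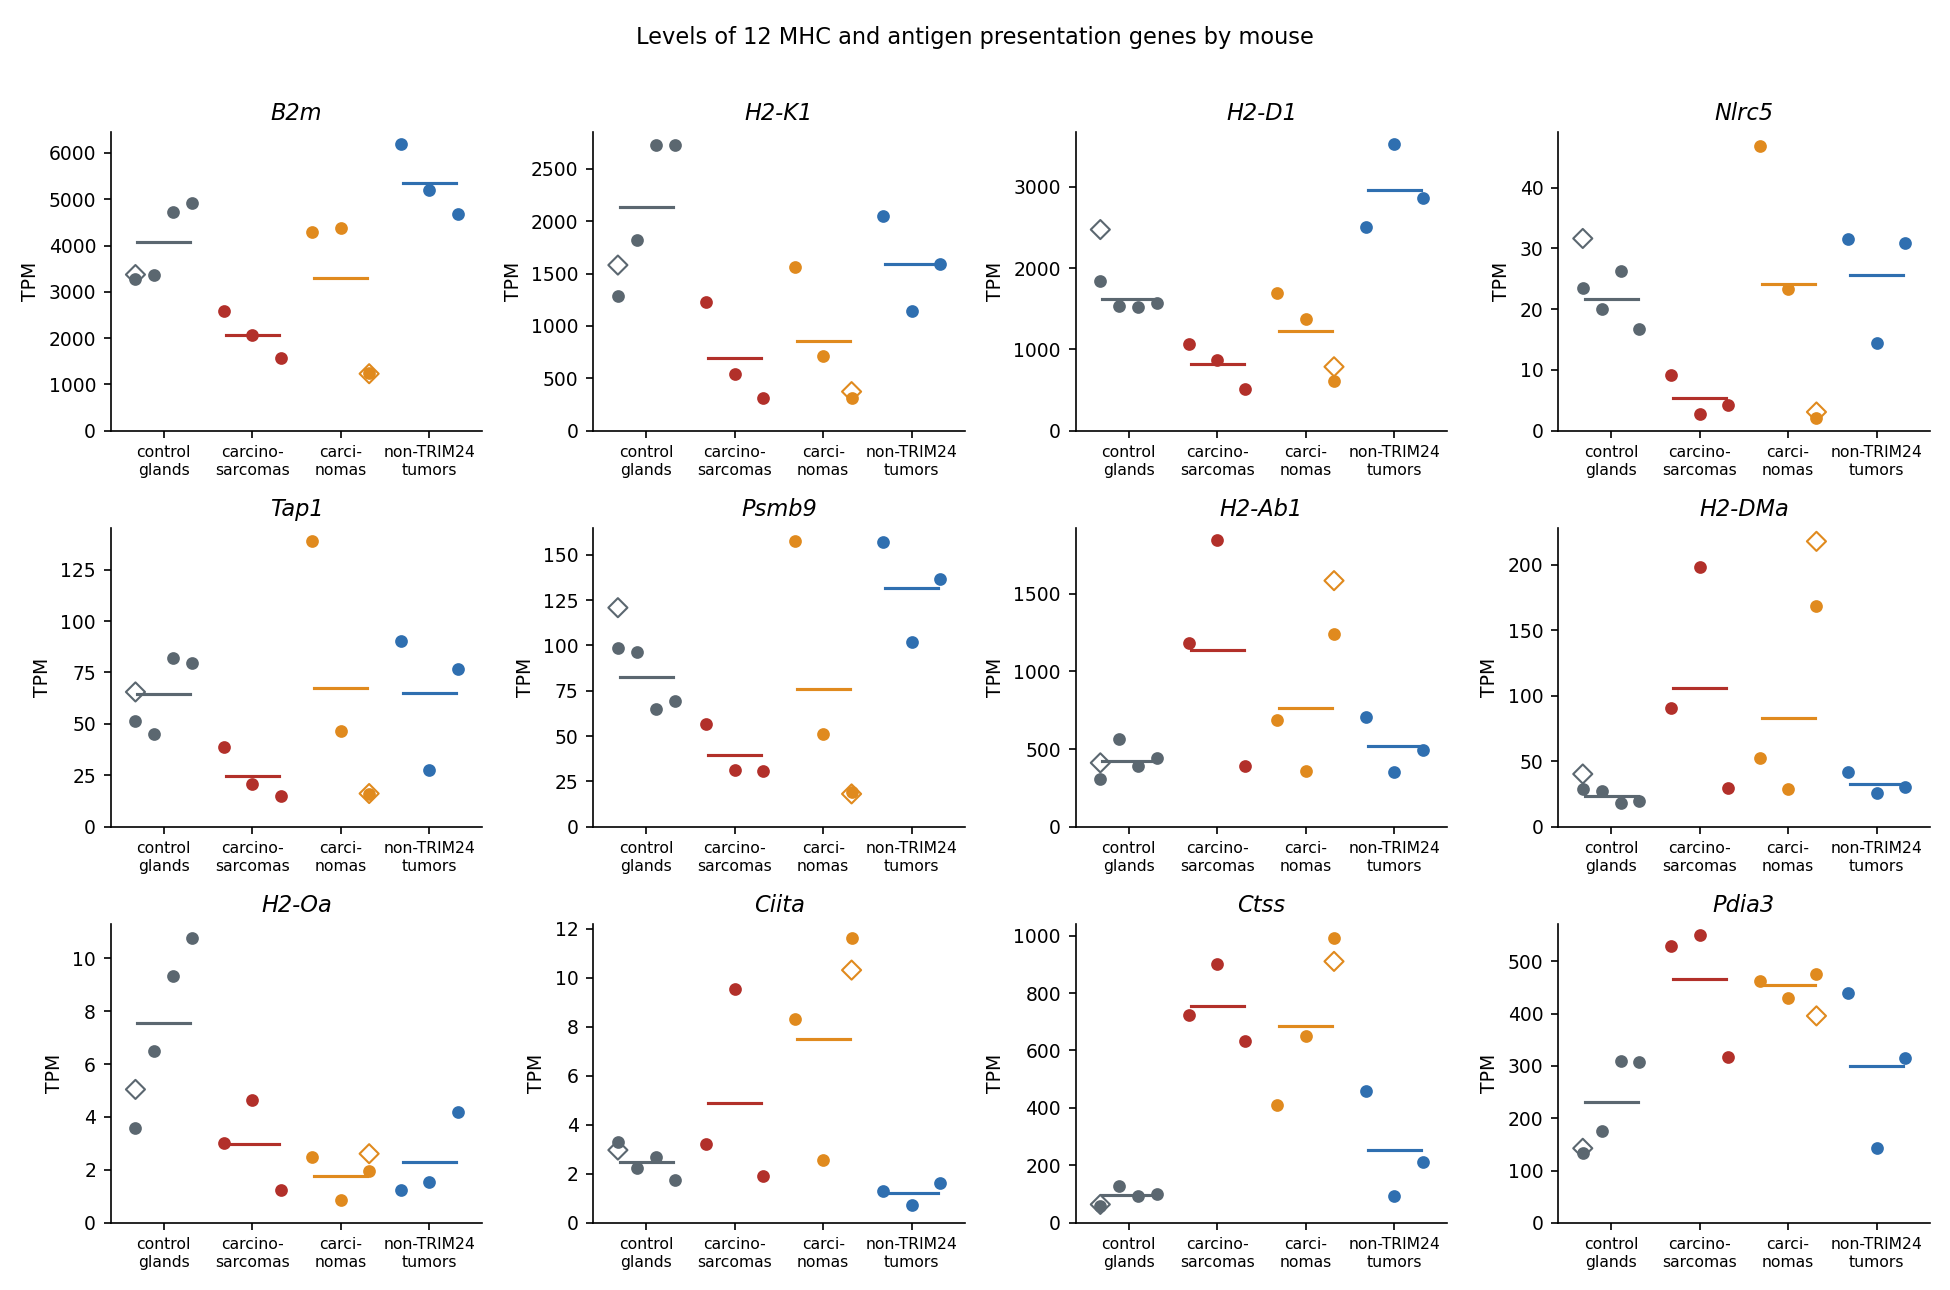
TPM of 12 members in every library by group, on a linear axis. Dots are first libraries, open diamonds are repeat libraries of mice 133 and 3956, and lines are group means. The carcinosarcomas lie below every control gland for B2m, H2-K1, H2-D1, Nlrc5, Tap1 and Psmb9 and above every control gland for Ctss.

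The light chain B2m, without which class I does not reach the cell surface, was at 3280.4, 3354, 4717 and 4917 TPM in the control glands, 2575, 2056 and 1578 TPM in the carcinosarcomas, 4296, 4380.1 and 1241 TPM in the carcinomas and 6201, 5191 and 4673 TPM in the non-TRIM24 tumors. All 3 carcinosarcomas were below the lowest control gland and carcinoma 3956 was the lowest mouse of all. Its difference did not pass the test in either comparison, with a log2 difference of -0.98 ± 0.32 (SE) for the carcinosarcomas (adjusted p = 0.0607) and -0.48 ± 0.5 (SE) for the carcinomas (adjusted p = 0.637).

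H2-K1, a classical heavy chain that presents peptides to CD8 T cells, was at 1289, 1815, 2724 and 2729 TPM in the control glands, 1231, 544 and 308 TPM in the carcinosarcomas, 1558, 708 and 313 TPM in the carcinomas and 2054, 1142 and 1589 TPM in the non-TRIM24 tumors. The carcinosarcomas lay below all control glands, and the carcinomas overlapped the controls through mouse 89. H2-K1 was 3.45-fold lower in carcinosarcomas (log2 -1.79 ± 0.5 (SE), adjusted p = 0.0373) and 3.17-fold lower over all 6 tumors (log2 -1.66 ± 0.48 (SE), adjusted p = 0.0367). For the carcinomas the log2 difference of -1.54 ± 0.55 (SE) was not past the threshold (adjusted p = 0.16).

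H2-D1, the other classical heavy chain, was at 1841, 1535, 1516 and 1573 TPM in the control glands, 1064, 871 and 514 TPM in the carcinosarcomas, 1689, 1369 and 609.7 TPM in the carcinomas and 2500.1, 3523 and 2863 TPM in the non-TRIM24 tumors. It fell 2.06-fold in carcinosarcomas (log2 -1.04 ± 0.31 (SE), adjusted p = 0.0437), with no overlap with the controls, but the call was lost with any single mouse left out (adjusted p = 0.0698 to 0.125). The 3 non-TRIM24 tumors, sequenced in batch 2, were above the first library of every control gland. The batch 2 repeat of gland 133 was at 2474 TPM, and with batch as a term the log2 difference of these tumors from the controls was 0.48 ± 0.36 (SE) (adjusted p = 0.471).

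The Qa heavy chains, nonclassical class I molecules, showed the lowest ratios to the controls. H2-Q6 was at 109, 199.6, 645 and 607 TPM in the control glands, 95.4, 14.8 and 15.3 TPM in the carcinosarcomas, 122, 37.9 and 4.97 TPM in the carcinomas and 235, 39.6 and 171 TPM in the non-TRIM24 tumors. H2-Q7 was at 159.6, 259, 856 and 846 TPM in the control glands, 129, 29.1 and 28.4 TPM in the carcinosarcomas, 247, 75.02 and 8.89 TPM in the carcinomas and 659, 83.8 and 372 TPM in the non-TRIM24 tumors. Both spanned a wide range among the controls, with glands 417_3 and 517_3 far above glands 133 and 392, and both were lowest in carcinosarcomas 567 and 897 and carcinoma 3956. In carcinosarcomas H2-Q6 fell 10.5-fold (log2 -3.39 ± 0.83 (SE), adjusted p = 0.0239) and H2-Q7 fell 8.58-fold (log2 -3.10 ± 0.76 (SE), adjusted p = 0.0234). Over all 6 tumors they fell by log2 differences of -3.35 ± 0.85 (SE) (adjusted p = 0.0213) and -2.98 ± 0.84 (SE) (adjusted p = 0.0329). Tumors and controls overlapped for both genes through carcinoma 89 alone.

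H2-Q4, another Qa heavy chain, was at 218, 206, 366 and 344 TPM in the control glands, 131, 61.6 and 34.7 TPM in the carcinosarcomas, 276, 136 and 34.1 TPM in the carcinomas and 180.1, 109.7 and 164 TPM in the non-TRIM24 tumors. It fell in carcinosarcomas by -2.05 ± 0.45 (SE) on the log2 scale (adjusted p = 0.0165), with all 3 below every control. H2-T23, the Qa-1 chain that presents leader peptides of other class I chains to NK cell receptors, was at 143, 305, 279 and 302 TPM in the control glands, 108, 50.05 and 46.8 TPM in the carcinosarcomas, 226, 15.9 and 58.4 TPM in the carcinomas and 193, 38.6 and 128 TPM in the non-TRIM24 tumors. Its lowest value was in carcinoma 273_5 rather than 3956, and it fell 3.85-fold in carcinosarcomas (adjusted p = 0.012) and 3.95-fold over all tumors (adjusted p = 0.0394). H2-T22 ranged from 107 to 208 TPM in the controls and was at 137, 44.6 and 44.5 TPM in the carcinosarcomas and 138, 12.3 and 36.7 TPM in the carcinomas, a log2 difference over all tumors of -1.35 ± 0.59 (SE) (adjusted p = 0.136). H2-M3, which presents formylated peptides, stood apart from the other heavy chains, at 11.9 to 19.1 TPM in the controls and 18.0 to 21.3 TPM in the carcinosarcomas (log2 0.42 ± 0.27 (SE), adjusted p = 0.28).

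H2 heavy chain genes are close relatives and some reads fit several of them. In the transcripts of the annotation, 32% of the 50-base stretches of H2-Q6, 26.4% of H2-Q7, 34.5% of H2-T22 and 21.8% of H2-Q4 also occur in another gene, against 9.63% for H2-K1 and 12.8% for H2-D1, so the split of reads among the Qa and H2-T genes is uncertain.

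Tap1 and Tap2 encode the subunits of the peptide transporter. Tap1 was at 51.4, 45.2, 82.01 and 79.4 TPM in the control glands, 38.8, 20.9 and 14.8 TPM in the carcinosarcomas, 139, 46.8 and 16.04 TPM in the carcinomas and 90.4, 27.8 and 76.5 TPM in the non-TRIM24 tumors. Tap2 was at 69.5, 72.8, 125 and 119 TPM in the control glands, 44.7, 32.3 and 14.2 TPM in the carcinosarcomas, 81.02, 42.1 and 13.5 TPM in the carcinomas and 93.7, 49.96 and 85.2 TPM in the non-TRIM24 tumors. All carcinosarcomas were below every control gland for both genes, and the carcinomas ran in Tap1 from below all controls in mouse 3956 to above all of them in mouse 89. In carcinosarcomas Tap1 fell 2.64-fold (log2 -1.40 ± 0.38 (SE), adjusted p = 0.0323) and Tap2 fell 3.304-fold (log2 -1.72 ± 0.42 (SE), adjusted p = 0.0229). Tap2 also fell over all 6 tumors (log2 -1.53 ± 0.47 (SE), adjusted p = 0.0452).

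The chaperones of the loading complex took another direction from the transporter. Pdia3, the disulfide isomerase of that complex, was at 133, 176, 309 and 307 TPM in the control glands, 530.5, 550.0 and 318 TPM in the carcinosarcomas, 462, 429.7 and 475 TPM in the carcinomas and 439, 144 and 316 TPM in the non-TRIM24 tumors. It rose 2.09-fold over all 6 tumors (log2 1.06 ± 0.28 (SE), adjusted p = 0.0244). Every tumor was above every control gland (exact permutation test, p = 0.00476, the smallest that 6 against 4 mice can give). The limma call held in 6 of the 10 fits with 1 mouse left out and in 4 of the 7 other settings. In the carcinosarcomas alone Pdia3 did not pass (limma, adjusted p = 0.0793). Calreticulin, the product of Calr, ranged from 239 to 548 TPM in the controls and from 443 to 1368 TPM in the Trim24COE tumors, with a log2 difference of 0.93 ± 0.37 (SE) (adjusted p = 0.107). Canx, calnexin, ranged from 84.0 to 222 TPM in the controls and from 169 to 230 TPM in the tumors (log2 0.66 ± 0.28 (SE), adjusted p = 0.127). These chaperones serve many glycoproteins besides class I, and other endoplasmic reticulum chaperones were higher too, as given further on. Tapbp, the tapasin bridge to the transporter, ranged from 89.5 to 254 TPM in the tumors and from 106 to 151 TPM in the controls (log2 0.01 ± 0.32 (SE), adjusted p = 0.986), and the peptide trimmer Erap1 from 10.9 to 31.8 TPM and from 14.4 to 43.0 TPM (log2 -0.48 ± 0.39 (SE), adjusted p = 0.421).

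The immunoproteasome subunits replace the constitutive catalytic subunits and favor peptides that fit class I. Psmb9 was at 98.5, 96.3, 65.2 and 69.5 TPM in the control glands, 56.6, 31.4 and 30.5 TPM in the carcinosarcomas, 158, 50.9 and 19.3 TPM in the carcinomas and 157, 102 and 137 TPM in the non-TRIM24 tumors, and it fell 2.11-fold in the carcinosarcomas (log2 -1.08 ± 0.3 (SE), adjusted p = 0.037). Psmb8 was at 177, 190.4, 208 and 237 TPM in the control glands, 199, 127 and 74.3 TPM in the carcinosarcomas, 384, 205 and 76.7 TPM in the carcinomas and 392, 181 and 266 TPM in the non-TRIM24 tumors. It did not pass in any comparison (carcinosarcomas log2 -0.71 ± 0.34 (SE), adjusted p = 0.167), and carcinosarcoma 64 lay within the controls. Psmb10 ranged from 74.8 to 172 TPM in the controls and from 77.4 to 259 TPM in the tumors (log2 0.38 ± 0.36 (SE), adjusted p = 0.501).

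The constitutive subunits all had positive differences over all tumors. Psmb5, which Psmb8 replaces, rose over all tumors by 0.89 ± 0.22 (SE) on the log2 scale (adjusted p = 0.0183), and Psmb7, which Psmb10 replaces, by 0.81 ± 0.21 (SE) (adjusted p = 0.0254). Psmb6, which Psmb9 replaces, had a log2 difference of 0.24 ± 0.2 (SE) (adjusted p = 0.427). The ratio of Psmb8 to Psmb5 in TPM was 1.99, 1.71, 2.23 and 2.14 in the control glands, 0.698, 0.695 and 0.351 in the carcinosarcomas and 2.52, 1.22 and 0.509 in the carcinomas. All carcinosarcomas and carcinomas 273_5 and 3956 were below every control gland in this ratio, and carcinoma 89 was above all of them. In the non-TRIM24 tumors the ratio was 2.13, 1.26 and 1.61. The ratio of Psmb9 to Psmb6 was 0.159, 0.109 and 0.0942 in the carcinosarcomas and 0.721, 0.136 and 0.0733 in the carcinomas, against 0.252 to 0.457 in the controls, so that carcinoma 89 was again above all of them. The ratio of Psmb10 to Psmb7 was 0.762, 0.417 and 0.477 in the carcinosarcomas and 1.06, 0.395 and 0.403 in the carcinomas, against 0.505 to 1.26 in the controls, with carcinosarcoma 64 and carcinoma 89 within the controls.

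Nlrc5, the coactivator of class I genes, was at 23.4, 20.1, 26.3 and 16.8 TPM in the control glands, 9.23, 2.72 and 4.28 TPM in the carcinosarcomas, 46.9, 23.3 and 2.13 TPM in the carcinomas and 31.6, 14.5 and 30.9 TPM in the non-TRIM24 tumors. Its level was lowest in carcinosarcomas 567 and 897 and carcinoma 3956, at 2.13 to 4.28 TPM, and highest in carcinoma 89. The same tumors were lowest for B2m, H2-K1, H2-D1, H2-Q4, H2-Q6 and H2-Q7. In carcinoma 273_5, however, each heavy chain was below every control gland while Nlrc5, at 23.3 TPM, and B2m were within the controls. Nlrc5 fell 3.82-fold in the carcinosarcomas (log2 -1.93 ± 0.38 (SE), adjusted p = 0.0108). Irf1, the interferon-induced transcription factor upstream of several class I genes, was at 57.3, 56.5, 183 and 160.1 TPM in the control glands, 56.2, 59.5 and 69.4 TPM in the carcinosarcomas, 187, 67.9 and 47.1 TPM in the carcinomas and 68.9, 40.3 and 65.5 TPM in the non-TRIM24 tumors. The controls themselves divided into a low pair, glands 133 and 392, and a high pair, glands 417_3 and 517_3, and no comparison of Irf1 passed the test (carcinosarcomas log2 -0.68 ± 0.47 (SE), adjusted p = 0.327).

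The class II chains were highest in carcinosarcomas 64 and 567 and carcinoma 3956. H2-Ab1, the beta chain of the I-A molecule, was at 307, 562, 392 and 440.4 TPM in the control glands, 1182, 1844 and 388 TPM in the carcinosarcomas, 686, 358 and 1239 TPM in the carcinomas and 709, 355 and 495 TPM in the non-TRIM24 tumors. Its partner H2-Aa ranged from 348 to 670.1 TPM in the controls and was at 1099, 1558 and 597 TPM in the carcinosarcomas and 650.4, 436 and 1149 TPM in the carcinomas. In both genes carcinosarcoma 897 and carcinoma 273_5 lay within the range of the controls. Neither passed the test, with log2 differences over all 6 tumors of 0.94 ± 0.46 (SE) for H2-Ab1 (adjusted p = 0.178) and 0.88 ± 0.36 (SE) for H2-Aa (adjusted p = 0.118). The invariant chain Cd74, which accompanies newly made class II, kept a narrow ratio to H2-Ab1 in TPM, with H2-Ab1 at 0.347 to 0.512 of Cd74 in all 13 mice.

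H2-Eb1, the beta chain of the I-E molecule, was at 181, 604, 421 and 455 TPM in the control glands, 1189, 883 and 245 TPM in the carcinosarcomas, 371, 4.5 and 611 TPM in the carcinomas and 381, 36.7 and 165 TPM in the non-TRIM24 tumors. It was as high as H2-Ab1 in some mice and far below it in others. The ratio of H2-Eb1 to H2-Ab1 in TPM was 0.588, 1.07, 1.08 and 1.03 in the control glands, 1.01, 0.479 and 0.631 in the carcinosarcomas, 0.541, 0.0126 and 0.493 in the carcinomas and 0.538, 0.104 and 0.334 in the non-TRIM24 tumors. Mice 392, 417_3, 517_3 and 64 had a ratio above 1, while carcinoma 273_5 and non-TRIM24 tumor FVB001 were the lowest.

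These mice also differed at H2-Ea-ps, a neighbor of H2-Eb1 that is annotated as a pseudogene in the reference strain and was looked at after the H2-Eb1 values were seen. It was at 2.85, 0.15, 0.07 and 0.15 TPM in the control glands, 0, 6.49 and 3.5 TPM in the carcinosarcomas, 3.83, 3.99 and 9.46 TPM in the carcinomas and 2.4, 1.75 and 3.74 TPM in the non-TRIM24 tumors. The 4 mice with a ratio above 1 were those at 0.15 TPM or below. H2 genes vary strongly between mouse strains, all samples carry the strain label FVB although the study names FVB/129 as a source of non-TRIM24 tumors, and the reads were aligned to a build of the C57BL/6J genome, which has another H2 haplotype. The part of this in the levels of H2-Eb1 and of the class I heavy chains was not tested, and no mice were grouped by it.

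**Figure D2:**
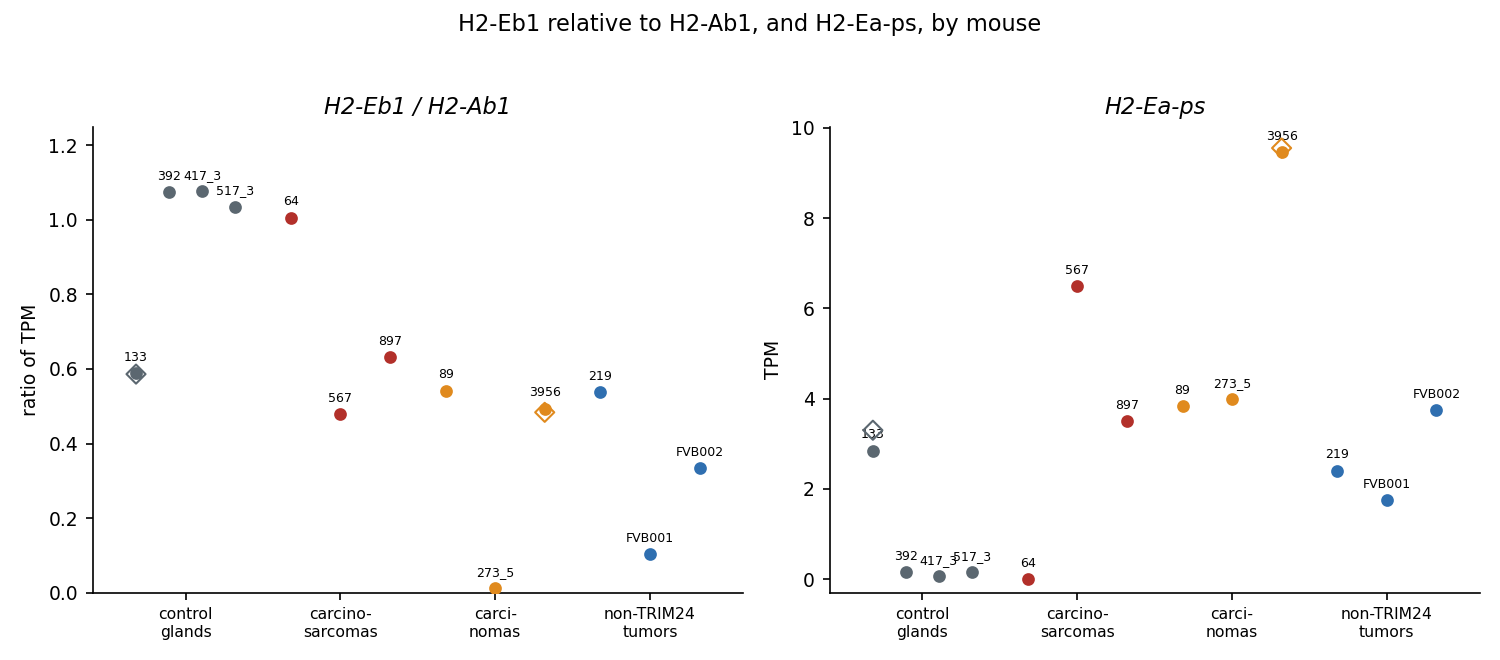
Ratio of H2-Eb1 to H2-Ab1 in TPM and the TPM of H2-Ea-ps in every library by group; dots are first libraries and open diamonds repeat libraries. The 4 mice with a ratio above 1 have the 4 lowest H2-Ea-ps values, and the ratio is lowest in carcinoma 273_5 at 0.0126.

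The peptide exchange factors divided into a pair of sets. H2-DMa, a chain of the H2-DM exchange factor, ranged from 18.4 to 28.8 TPM in the controls and was at 90.9, 198 and 29.7 TPM in the carcinosarcomas and 52.5, 28.5 and 169 TPM in the carcinomas, a log2 difference over all tumors of 1.61 ± 0.55 (SE) (adjusted p = 0.0647). Its partner H2-DMb2 was at 9.98, 14.8, 9.42 and 11.2 TPM in the control glands, 15.4, 82.1 and 10.9 TPM in the carcinosarcomas, 12.6, 13.5 and 56.1 TPM in the carcinomas and 13.6, 14.9 and 16.8 TPM in the non-TRIM24 tumors, with carcinosarcoma 567 and carcinoma 3956 over 3 times as high as any other mouse. H2-DMb1 ranged from 31.01 to 52.3 TPM in the controls and from 20.4 to 133 TPM in the tumors (log2 0.58 ± 0.52 (SE), adjusted p = 0.465). H2-DMb1 and H2-DMb2 share 22.7% and 24.8% of their 50-base stretches, most of them with each other, so reads may be split between them.

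H2-Oa and H2-Ob, the chains of the H2-O inhibitor of H2-DM, were both low. H2-Oa was at 3.6, 6.48, 9.34 and 10.8 TPM in the control glands, 3.03, 4.64 and 1.22 TPM in the carcinosarcomas, 2.48, 0.85 and 1.97 TPM in the carcinomas and 1.24, 1.53 and 4.17 TPM in the non-TRIM24 tumors, and it fell 2.56-fold over all 6 tumors (log2 -1.36 ± 0.37 (SE), adjusted p = 0.0304). H2-Ob was at 2.33, 5.94, 5.72 and 4.28 TPM in the control glands, 1.43, 2.38 and 0.74 TPM in the carcinosarcomas, 1.97, 0.99 and 2.15 TPM in the carcinomas and 0.82, 1.07 and 3.01 TPM in the non-TRIM24 tumors, and it fell 2.11-fold (log2 -1.08 ± 0.3 (SE), adjusted p = 0.0304). Tumors and controls overlapped for both, through the lowest control gland, 133. H2-O is typical of B cells, and the B cell markers were lower as well: the summed TPM of 8 markers was 10.5 to 78.5 in the controls, 4.45 to 18.6 in the Trim24COE tumors and 2.92 to 91.7 in the non-TRIM24 tumors, with 5 of the 8 tested and Cd79a and Ms4a1 among those past the threshold downward and no marker at 0 in every mouse of a group. The part of B cells in these values was not tested.

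The ratio of H2-DM to H2-O, as summed TPM of the 3 H2-DM genes over the 2 H2-O genes, was 11.8, 7.57, 4.68 and 4.86 in the control glands. It was 47.2, 58.9 and 36.04 in the carcinosarcomas, 26.5, 33.9 and 86.2 in the carcinomas and 48.3, 20.9 and 9.82 in the non-TRIM24 tumors. All 6 Trim24COE tumors were above every control gland.

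Ctss, the gene of the protease that finishes the invariant chain, rose the most of the members in these comparisons. It was at 59.2, 129, 94.3 and 101 TPM in the control glands, 724, 902 and 634 TPM in the carcinosarcomas, 409, 649 and 992 TPM in the carcinomas and 458, 94.5 and 212 TPM in the non-TRIM24 tumors. The lowest Trim24COE tumor was over 3 times the highest control gland. Ctss rose 7.998-fold in carcinosarcomas (log2 3.0 ± 0.3 (SE), adjusted p = 0.00115), 6.88-fold in carcinomas (log2 2.78 ± 0.38 (SE), adjusted p = 0.0154) and 7.42-fold over all 6 tumors (log2 2.89 ± 0.29 (SE), adjusted p = 0.000271). Ciita, the class II coactivator, was at 3.31, 2.23, 2.68 and 1.76 TPM in the control glands, 3.21, 9.55 and 1.92 TPM in the carcinosarcomas, 8.34, 2.56 and 11.6 TPM in the carcinomas and 1.31, 0.71 and 1.64 TPM in the non-TRIM24 tumors. It was highest in the tumors of mice 3956, 567 and 89 and passed no test (all tumors log2 0.84 ± 0.44 (SE), adjusted p = 0.217).

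Macrophages are rich in Ctss and make class II, and their markers were higher in the Trim24COE tumors. The summed TPM of 10 macrophage markers was 345, 869.7, 289.8 and 320.3 in the control glands and 1239 to 3521 in the Trim24COE tumors, with 8 of the 10 past the threshold upward and none at 0 in any group. In the carcinosarcomas 7 of the 10 rose and in the carcinomas 5 rose, while the sum was 1028 to 1614 in the non-TRIM24 tumors and 1 marker, Cd68, rose. Of 5 markers of all leukocytes, 4 rose over all tumors. With the mean level of those 5 markers as a covariate, Ctss remained past the threshold over all tumors (log2 2.07, adjusted p = 0.0498) and not in the carcinosarcomas (log2 2.16, adjusted p = 0.101) or the carcinomas (log2 1.93, adjusted p = 0.321), H2-Ab1 in the carcinosarcomas went from 1.19 to -0.46 and H2-DMa over all tumors from 1.61 to -0.42. The part of macrophages in the class II and Ctss values was otherwise not tested.

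Over all 6 Trim24COE tumors, 9 of the 31 members passed the test, 2 upward and 7 downward, where 17.1% of the 15196 genes tested passed, 7.96% upward and 9.13% downward. In the class I route 5 of 21 fell (H2-K1, H2-Q6, H2-Q7, H2-T23 and Tap2) and 1 rose (Pdia3), and the median log2 difference was -0.78. In the class II route 2 of 10 fell (H2-Oa and H2-Ob) and 1 rose (Ctss), with a median of 0.86, beside -0.04 over all genes tested. Groups did not overlap for 2 members, Ctss and Pdia3, both higher in the tumors, where 14.6% of all genes tested did not overlap and 7.39% were higher in every tumor. The 2 upward and 7 downward calls became 1 and 1 without control gland 392, 3 and 0 without 417_3 and 2 and 0 without 517_3, so that all 7 downward calls were lost without gland 417_3 and likewise without gland 517_3. They were 1 and 3 without carcinosarcoma 567, 3 and 1 without carcinosarcoma 897 and 2 and 3 without carcinoma 3956. Ctss was past the threshold in each.

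The carcinosarcomas had the most calls, 11 of 31 members, beside 23% of the 15287 genes tested. In the class I route 10 of 21 fell and 0 rose, where 13.1% of all genes fell: H2-K1, H2-D1, H2-Q4, H2-Q6, H2-Q7, H2-T23, Tap1, Tap2, Psmb9 and Nlrc5. In the class II route 1 of 10 rose, Ctss, where 9.83% of all genes rose, and 0 fell. The median log2 difference was -1.01 in the class I route and 0.95 in the class II route, beside -0.12 over all genes. In the class I route 12 of 21 members were lower in every carcinosarcoma than in every control gland, beside 21.6% of all genes, and 1, Pdia3, was higher in every one, beside 15.4%. In the class II route H2-DMa and Ctss were higher in every carcinosarcoma. The 1 upward and 10 downward calls became 1 and 5 without control gland 417_3 and 1 and 4 without 517_3. They became 1 and 1 without carcinosarcoma 567 and 5 and 2 without carcinosarcoma 897. When the carcinomas were fitted together with these groups, the calls were 1 and 3. Of all genes tested, 18.5%, 16.6%, 10.9%, 13.2% and 20.7% passed in these fits, in the order given. With each of the 7 mice left out in turn, Nlrc5 and Ctss passed in 7 of the 7 fits, H2-T23 in 6, H2-Q4 and H2-Q7 in 5, H2-Q6, Tap1 and Tap2 in 3, H2-K1 and Psmb9 in 2 and H2-D1 in 0. With the leukocyte covariate 0 of 31 passed, where 0.373% of all genes did. In that fit 4 members had an unadjusted p under 0.05, as did 2655 of the 15287 genes tested.

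Markers of other cell types moved in the carcinosarcomas too. Of 8 markers of luminal and basal epithelium 5 fell, with a median log2 difference of -3.60, and their summed TPM was 893 to 6056 in the control glands and 374 to 1423 in the carcinosarcomas. Of 8 markers of fibroblasts and mesenchyme 6 rose, with a median of 2.19 and sums of 1019 to 2193 TPM and 5834 to 11006 TPM. Of 8 T cell markers 1 fell and 7 had a negative difference, with sums of 38.1 to 64.9 TPM and 29.2 to 34.4 TPM. No marker of these lists was at 0 in a library of either group, and the part of these cells in the class I values was not tested.

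Control glands 133 and 392 had adipocyte marker sums of 27548 and 33252 TPM and glands 417_3 and 517_3 of 1753 and 1930 TPM, beside 104 to 1311 TPM in the Trim24COE tumors, and comparisons with each pair of glands were added after these values were seen. Against glands 417_3 and 517_3 alone, 14 members passed in the carcinosarcomas, beside 37.6% of all genes tested, with B2m (log2 -1.25), Erap1 (log2 -1.49), Irf1 (log2 -1.46), H2-Oa (log2 -1.58) and H2-Ob (log2 -1.30) among those that fell. Against glands 133 and 392 alone, 7 passed, a smaller share of the members than the 31.9% of all genes, and Calr (log2 1.74), Canx (log2 1.27) and Pdia3 (log2 1.56) rose while H2-T23, Nlrc5 and Psmb9 fell and Ctss rose, and Irf1 was at a log2 difference of 0.11. Nlrc5, H2-T23 and Ctss thus passed against either pair, whereas the Qa chains H2-Q4, H2-Q6 and H2-Q7, H2-K1 and the transporter genes passed against glands 417_3 and 517_3 and not against the other pair. The part of fat in the control values was not tested beyond this and the adipocyte covariate.

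**Figure D3:**
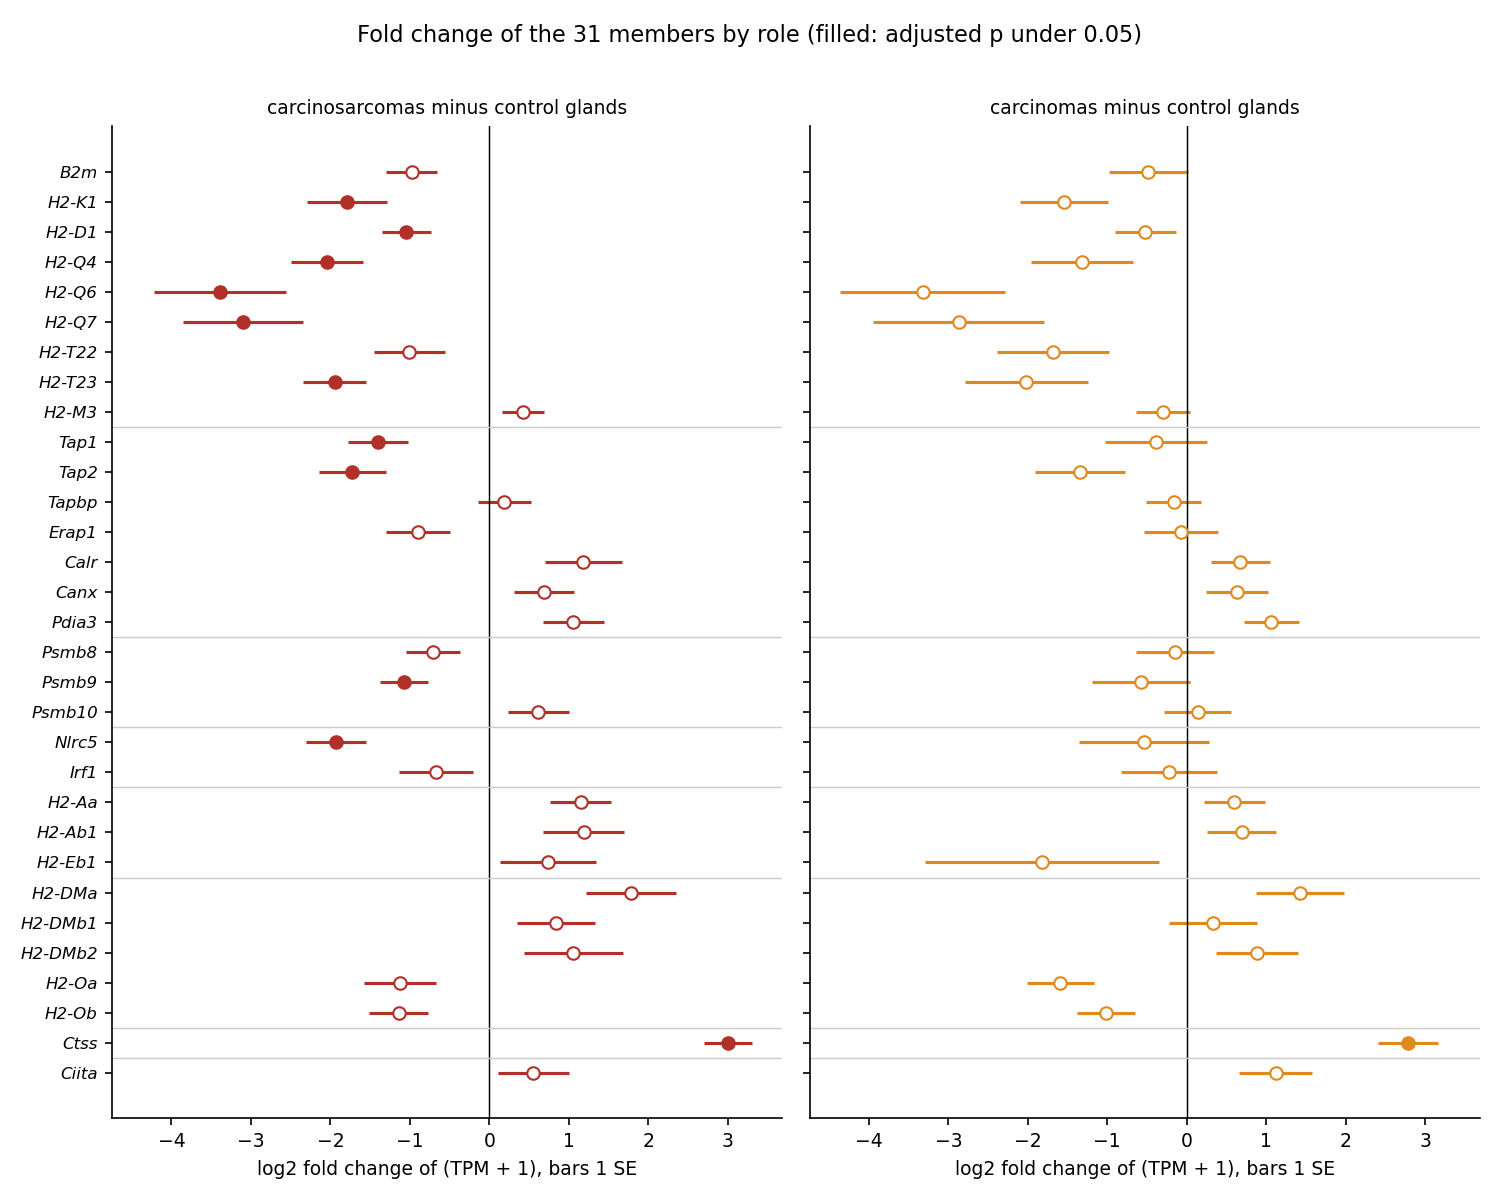
Log2 difference, on log2(TPM + 1), of the carcinosarcomas and of the carcinomas from the control glands for each of the 31 members; bars are 1 SE and filled symbols have a limma adjusted p under 0.05. In the carcinosarcomas 10 class I route members are filled to the left of 0 and Ctss is filled to the right, and in the carcinomas only Ctss is filled.

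The carcinomas had 1 call of 31, Ctss, beside 3.5% of the 15479 genes tested, 1.58% upward and 1.92% downward. An unadjusted p under 0.05 was reached by 12 members and by 3328 of the genes tested. The median log2 difference was -0.48 in the class I route and 0.65 in the class II route, beside 0.02 over all genes. The 3 tumors differed among themselves: mouse 89 had levels of Tap1, Psmb8, Psmb9 and Nlrc5 above every control gland, and mouse 3956 had levels below every control gland for these genes. Without gland 417_3, gland 517_3 or carcinoma 3956 the call of Ctss was lost, with an adjusted p of at most 0.0522.

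The carcinosarcomas and the carcinomas were not told apart by any member, and their classes were in part called from these RNA-seq data. With 3 mice against 3, 0 of 31 passed in limma, where 0.698% of the 14193 genes tested passed. An unadjusted p under 0.05 was reached by 0 members and by 2126 of the genes tested. The exact permutation test cannot go below 0.1. Nlrc5 had a log2 difference of -1.39 ± 0.98 (SE) (adjusted p = 0.532) and H2-K1 of -0.25 ± 0.7 (SE) (adjusted p = 0.899), so the fall of class I genes in the carcinosarcomas was not shown to differ from the values in the carcinomas. H2-M3 was the only member whose groups did not overlap, beside 21.8% of all genes tested, at 21.2, 21.03 and 17.99 TPM in the carcinosarcomas and 16.1, 7.7 and 12.9 TPM in the carcinomas (adjusted p = 0.343).

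The class I chains of the non-TRIM24 tumors lay on both sides of the controls. B2m was at 4673 to 6201 TPM, with 2 of the 3 tumors above every control gland, and H2-D1 was above the first library of every control gland, whereas H2-Q4 was below every control gland. In tumor FVB001 H2-K1, H2-Q6, H2-Q7, H2-T22 and H2-T23 were also below every control gland, with H2-T22 at 19.8 TPM against 107 to 208 TPM. Of their class II chains, H2-Aa and H2-Ab1 were above the controls in tumor 219 and H2-Eb1 was below them in tumors FVB001 and FVB002. In the fit with batch as a term 0 of 31 members passed in limma, where 0.709% of the 16775 genes tested did, 0.203% upward and 0.507% downward. An unadjusted p under 0.05 was reached by 3235 of those genes and by 5 members: H2-Oa (log2 -1.71 ± 0.45 (SE), adjusted p = 0.101), H2-Ob (log2 -1.28 ± 0.4 (SE)), Ctss (log2 1.17 ± 0.48 (SE)), Erap1 (log2 -0.95 ± 0.4 (SE)) and H2-T23 (log2 -1.66 ± 0.75 (SE)). The median over all genes was -0.27 in this fit. Batch 1 holds no non-TRIM24 tumor and batch 2 only 1 control library, the repeat of gland 133. Within a batch there are thus values and no test, and this repeat is itself part of the fit. That library was at 5.04 TPM of H2-Oa and 3.01 TPM of H2-Ob, against 1.24, 1.53 and 4.17 TPM and 0.82, 1.07 and 3.01 TPM in the tumors. It was at 63.9 TPM of Ctss against 458, 94.5 and 212 TPM, 14.9 TPM of Erap1 against 8.75, 9.05 and 12.7 TPM and 198 TPM of H2-T23 against 193, 38.6 and 128 TPM.

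Between Trim24COE carcinomas and non-TRIM24 tumors, both labelled carcinoma, 0 of 31 members passed, beside 0.0298% of the 16775 genes tested. An unadjusted p under 0.05 was reached by 2953 of the 16775 genes tested and by 5 of the 31 members. These 5 were Canx (log2 1.37 ± 0.41 (SE), adjusted p = 0.179), Ciita (log2 1.66 ± 0.52 (SE), adjusted p = 0.186), Ctss (log2 1.59 ± 0.5 (SE), adjusted p = 0.187), H2-D1 (log2 -1.02 ± 0.38 (SE), adjusted p = 0.217) and H2-DMa (log2 1.42 ± 0.65 (SE), adjusted p = 0.282). All 10 class II route members had a positive difference, with a median of 0.86 beside 0.27 over all genes. Of the 5, Canx and H2-D1 passed when the batch term was left out, with log2 differences of 1.56 and -1.39. In that fit 9.07% of the 16544 genes tested passed. Batch 2 holds all non-TRIM24 tumors and 1 carcinoma library, the repeat of mouse 3956, which allows values and no test. It was at 184 TPM of Canx, 10.3 TPM of Ciita, 910.2 TPM of Ctss and 218 TPM of H2-DMa, each above the 3 non-TRIM24 tumors. For H2-D1 it was at 785 TPM, below them. This repeat is itself part of the fit. In its first library mouse 3956 was already the highest carcinoma for Canx, Ciita, Ctss and H2-DMa and the lowest for H2-D1. The values of the repeat are therefore not a separate check of these differences.

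Class I was set against class II in each library as the summed TPM of H2-Aa, H2-Ab1 and H2-Eb1 over that of H2-K1, H2-D1 and B2m, which gets no test. The ratio was 0.1305, 0.274, 0.136 and 0.145 in the control glands, 0.713, 1.23 and 0.513 in the carcinosarcomas, 0.226, 0.124 and 1.39 in the carcinomas and 0.178, 0.0744 and 0.129 in the non-TRIM24 tumors. All carcinosarcomas and carcinoma 3956 were above every other mouse, and class II chains outweighed class I in carcinosarcoma 567 and carcinoma 3956, in whose repeat library the ratio was 1.61. Over the heavy chains H2-K1 and H2-D1 alone, the ratio was 1.51, 3.03 and 1.497 in the carcinosarcomas and 0.526, 0.384 and 3.25 in the carcinomas, against 0.267 to 0.548 in the controls and 0.157 to 0.419 in the non-TRIM24 tumors. With H2-Eb1 left out as well, the carcinosarcomas were at 0.994, 2.403 and 1.199 and the controls at 0.209, 0.368, 0.189 and 0.206.

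**Figure D4:**
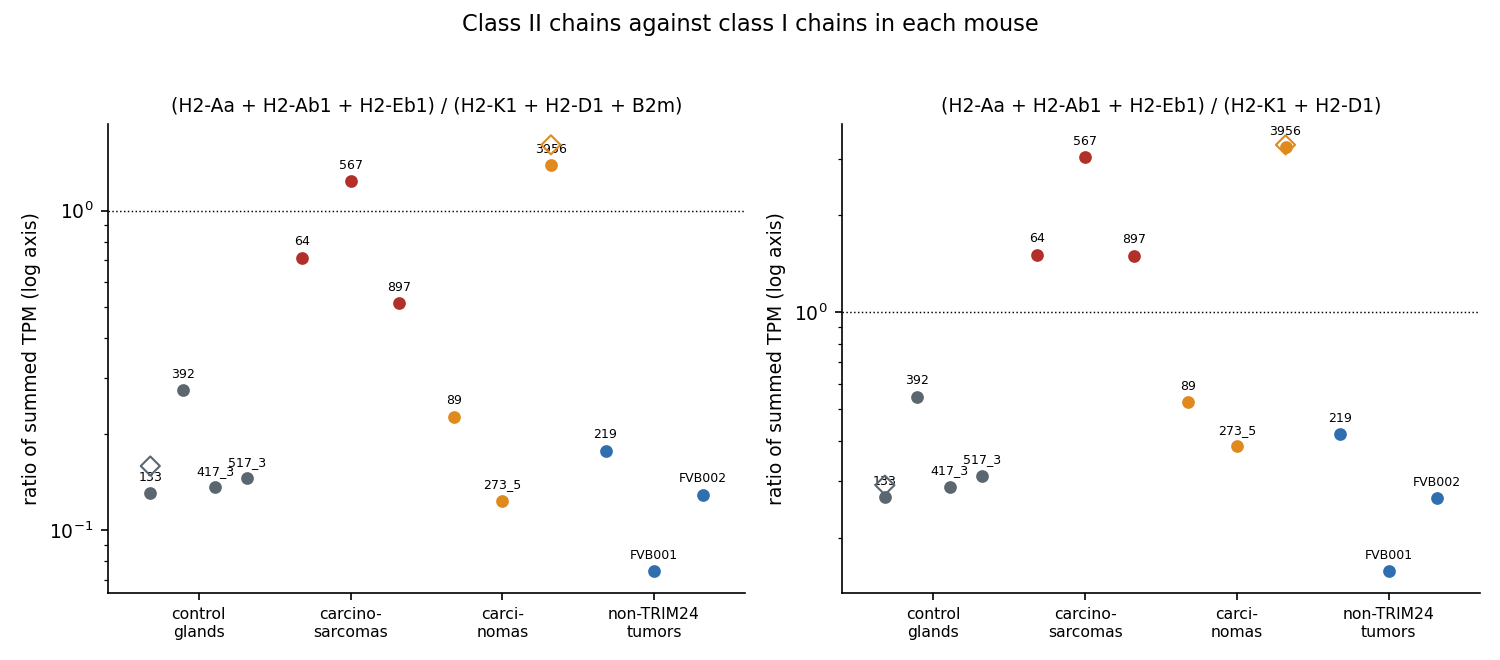
Summed TPM of the class II chains over that of the class I chains in every library by group; dots are first libraries and open diamonds repeat libraries. The 3 carcinosarcomas, at 0.513 to 1.23, and carcinoma 3956, at 1.39, lie above all control glands and all non-TRIM24 tumors.

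The 2 sides of this ratio moved in different tumors to a degree. Among the 13 mice, carcinosarcomas 567 and 897 and carcinoma 3956 were the lowest 3 for 11 of the 21 class I route members, which were B2m, H2-K1, H2-D1, H2-Q4, H2-Q6, H2-Q7, Tap1, Tap2, Psmb8, Psmb9 and Nlrc5. Carcinosarcomas 64 and 567 and carcinoma 3956 were the highest 3 for 6 of the 10 class II route members, which were H2-Aa, H2-Ab1, H2-Eb1, H2-DMa, H2-DMb1 and Ctss. Mice 567 and 3956 are in both sets, while mouse 897 was low in class I without high class II chains and mouse 64 had high class II chains with class I levels between those of the other carcinosarcomas and the controls. These sets of mice were described after the values were seen. How many of all genes have the same mice lowest or highest was not counted, so the counts are not shown to be particular to these members. Mice 567, 897 and 3956 were also the only ones with H2-Ea-ps above 0.15 TPM and H2-Q1, another class I gene, at 0.53 TPM or below. Those with H2-Ea-ps at 0.15 TPM or below were control glands 392, 417_3 and 517_3 and carcinosarcoma 64. Low class I levels in these mice thus cannot be told apart from differences between mice at the H2 region, whose part was not tested.

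**Figure D5:**
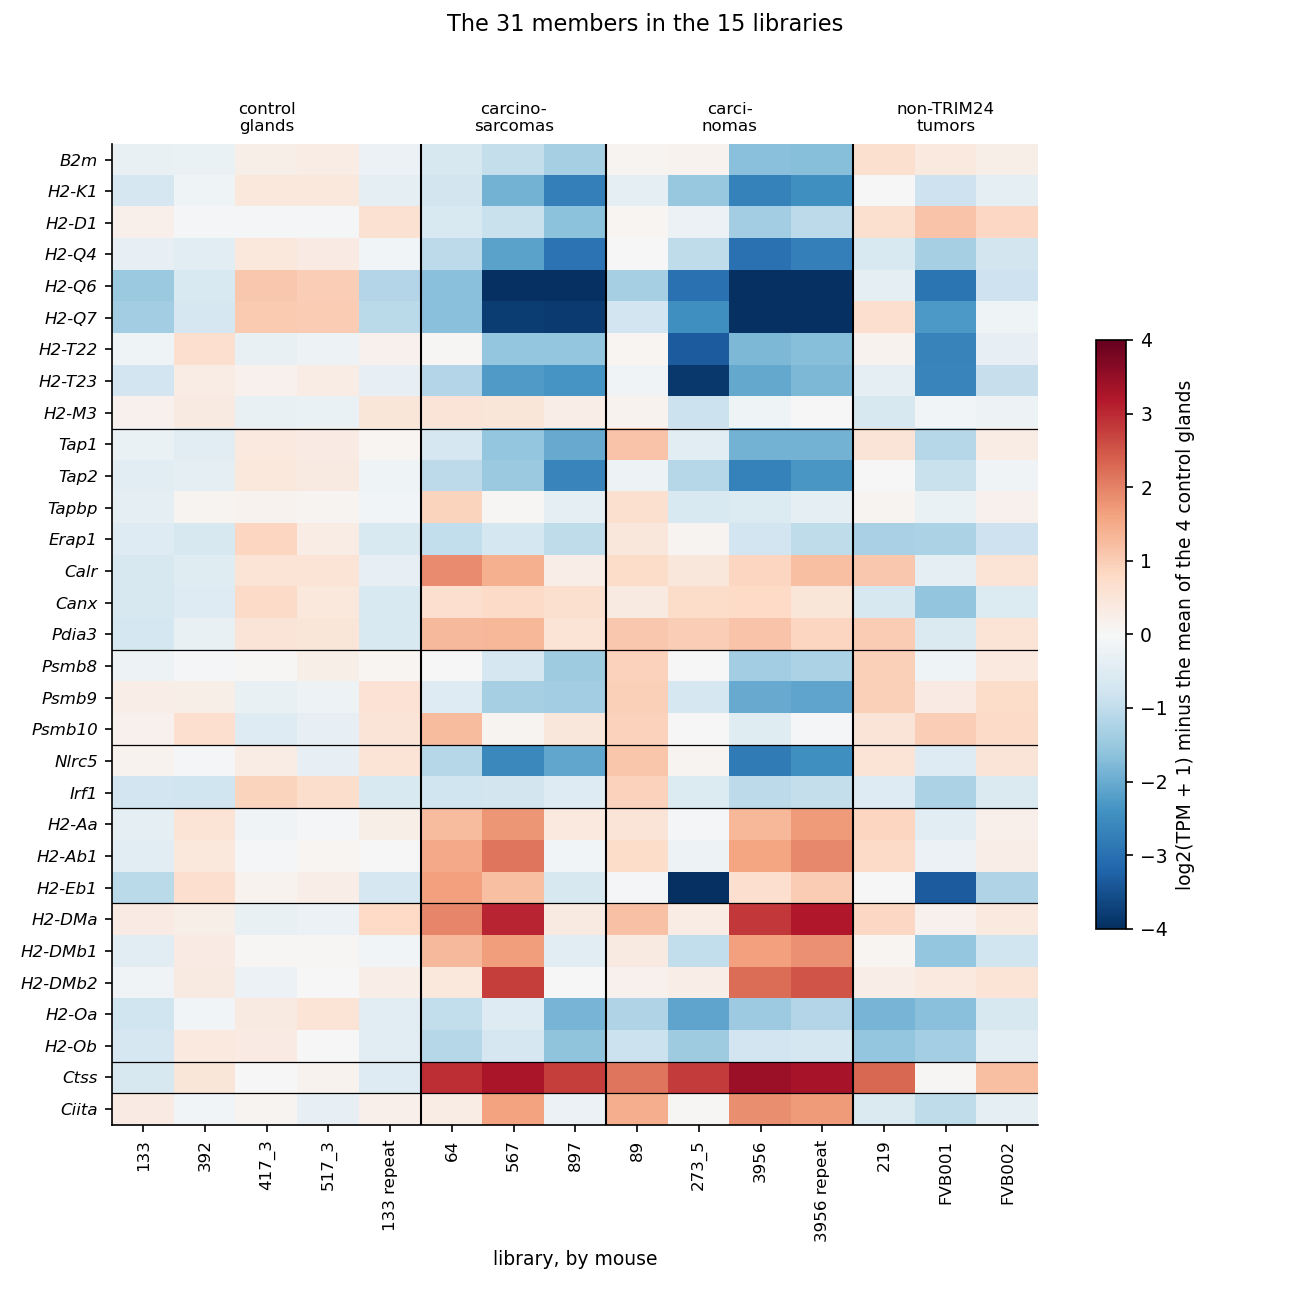
Level of the 31 members in each of the 15 libraries as log2(TPM + 1) minus the mean of the 4 control glands, with members ordered by role and libraries by group. Blue marks lower and red higher levels: the rows of B2m, H2-K1, H2-D1, Tap1 and Tap2 are blue in 567, 897 and 3956, and those of H2-Aa, H2-Ab1, H2-DMa and Ctss are red in 64, 567 and 3956.

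Of 44 other genes of the pathway, taken by function, 40 were tested over all tumors, and 9 rose and 4 fell, where 7.96% of all genes rose and 9.13% fell, so the share that fell was near that of all genes. Those that rose include lysosomal and thiol enzymes of the class II route, Lgmn, which starts to cut the invariant chain (log2 2.26 ± 0.31 (SE), adjusted p = 0.00115), and Ctsd, cathepsin D (log2 1.11 ± 0.25 (SE), adjusted p = 0.0118). They also include the endoplasmic reticulum chaperones Pdia6 (log2 1.27 ± 0.22 (SE), adjusted p = 0.00386) and Hsp90b1 (log2 1.02 ± 0.23 (SE), adjusted p = 0.012) and the constitutive proteasome subunit Psmb5, given above. All 4 that fell encode class I or class I-like chains: H2-Q2 (log2 -2.74 ± 0.44 (SE), adjusted p = 0.00255), Mr1, which presents vitamin metabolites to MAIT cells (log2 -1.03 ± 0.22 (SE), adjusted p = 0.0113), H2-Q10 (log2 -2.37 ± 0.71 (SE), adjusted p = 0.0415) and H2-T24 (log2 -0.98 ± 0.31 (SE), adjusted p = 0.048).

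In the carcinosarcomas 8 of 41 tested rose and 5 fell, where 9.83% of all genes rose and 13.1% fell. Lgmn was at 493, 407 and 416 TPM there and 41.2, 78.95, 76.9 and 79.9 TPM in the controls (log2 2.69 ± 0.29 (SE), adjusted p = 0.0014). Psmb7 (log2 1.07 ± 0.21 (SE)), Psmb5 (log2 1.14 ± 0.24 (SE)), Pdia6 (log2 1.36 ± 0.29 (SE)) and Ifi30, the lysosomal thiol reductase (log2 1.68 ± 0.44 (SE)), rose as well. H2-Q2 (log2 -3.26 ± 0.31 (SE)), Tapbpl, a peptide editor of class I (log2 -1.21 ± 0.25 (SE)), H2-T10 (log2 -1.71 ± 0.39 (SE)), Mr1 (log2 -0.99 ± 0.26 (SE)) and H2-T24 (log2 -1.19 ± 0.36 (SE)) fell. In the carcinomas 3 of 43 passed, all upward: Lgmn (log2 1.83 ± 0.31 (SE), adjusted p = 0.0252), Pdia6 (log2 1.19 ± 0.23 (SE), adjusted p = 0.0364) and Ctsd (log2 1.20 ± 0.26 (SE), adjusted p = 0.0491). In the other 3 comparisons 0 passed. The X and Y box factors, Rfx5, Rfxap, Rfxank, Nfya, Nfyb, Nfyc and Creb1, had 0 of 7 past the threshold in every comparison, with log2 differences of -0.89 to 0.20 in the carcinosarcomas.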

How the data were processed

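RNA-seq was performed by the authors on 15 libraries of 13 mice. The labels name TopHat, Cufflinks, RSEM, FastQC and mm10, while the study's methods name STAR, RSEM and GENCODE. They also differ on the RNA and library kits, so which applied to these values, and whether strand was used, was not settled. The authors deposited TPM (length-scaled transcript abundance) for 51826 genes in each of 2 tables, without counts, so read depth is unknown. Columns without a sample numbered 0.

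Groups came from the genotype and subtype labels. In the study's supplement, a pathologist classed carcinomas 89 and 3956 as carcinosarcoma. The deposited TPM were compared as log2(TPM + 1) with limma 3.58.1 in R 4.3.3 (variance trend, two-sided, Benjamini-Hochberg adjustment over all genes tested, threshold 0.05), on genes that reached 1 TPM in at least the number of libraries that equals the mice of the smaller group. Within batch 1 each mouse entered once, by its first library. For non-TRIM24 tumors all 15 libraries were fitted, with batch as a term and libraries of a mouse linked (correlation 0.951). A two-sided exact permutation test over mice was run on single members. The fits were tested on simulated data. Alternatives were the pseudocount (0.1 TPM), no filter, quantile normalization, all batch 1 groups in one fit, mean of repeat libraries, adipocyte or leukocyte covariates, no batch term, unlinked libraries, and each mouse left out. Promoters were read from RefSeq tables (GRCm38.p6) and coordinates from GENCODE M21.

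All 31 members were to be named, with values in every mouse for 15 chosen members and every member past the threshold. Of the other pathway genes, up to 5 in each direction of a comparison were named by smallest adjusted p. The members and gene lists were chosen with earlier results of these data known. P-values measure the spread between mice. Some items are not reported here.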

Additional observations from a re-analysis of the deposited data

Results flagged for a closer look

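In 6 of 66 groups of values tested, 1 mouse lay far from the others of its group, beyond the 95% limit of Dixon's test, which chance passes in about 1 in 20 groups. H2-T22 was at 208 TPM in control gland 392, above the other control glands. H2-T23 was at 143 TPM and Tapbp at 106 TPM in control gland 133, both below the other control glands. Irf1 was at 187 TPM in carcinoma 89, above the other 5 Trim24COE tumors. H2-Eb1 was at 4.50 TPM in carcinoma 273_5, below the other 5 Trim24COE tumors. The summed class II over class I chains were at 0.274 in control gland 392, above the other control glands.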

How the results depend on the processing

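The limits of depth cannot be given for TPM, and 3 or 4 mice a group give wide errors. The share of all genes tested that passed in the same fit is given in brackets after each count of members. Over all 6 Trim24COE tumors, 9 members passed (17.1%), 1 with no filter (4.76%) and 2 with the adipocyte covariate (7.11%). The count was 1 with the leukocyte covariate (1.47%), 5 without control glands 133 and 392 (16.2%) and 4 without glands 417_3 and 517_3 (19.3%). With 1 mouse left out it was 2 to 12 (11.3% to 19.6%). For carcinosarcomas, 11 passed (23%), 3 with no filter (4.15%) and 4 with all batch 1 groups in one fit (20.7%). The count was 15 with the adipocyte covariate (32.5%) and 0 with the leukocyte covariate (0.373%). It was 7 without glands 417_3 and 517_3 (31.9%) and 14 without glands 133 and 392 (37.6%). With 1 mouse left out, 2 to 11 passed (8.14% to 20.9%). For carcinomas, 1 passed (3.5%), 0 with no filter (0.119%) and 0 with the leukocyte covariate (0%). The count was 2 without glands 133 and 392 (7.77%) and 4 without glands 417_3 and 517_3 (7.81%). With 1 mouse left out, 0 to 1 passed (0.475% to 3.51%). Between carcinomas and non-TRIM24 tumors 0 passed (0.0298%), and 2 passed with no batch term (9.07%). Libraries with more class II than class I chains were 3, and 5 with B2m left out of class I. The cause was not tested, except that without the filter more genes were tested. Sign changed in the carcinosarcomas for H2-Aa (-0.17), H2-Ab1 (-0.46), H2-DMb1 (-0.62) and Irf1 (0.0032) with the leukocyte covariate, for Irf1 (0.11) without glands 417_3 and 517_3 and for Canx (-0.24) with the adipocyte covariate, and over all tumors for H2-DMa (-0.42) with the leukocyte covariate and Canx (-0.0070) with the adipocyte covariate. Of the differences of members that passed in the same comparison under at least 1 setting, 602 values under an alternative kept their direction and side of the threshold, 155 fell short of it, 38 passed it and 8 changed sign. Over all 31 members and 6 comparisons, 172 of 2635 values changed sign, 0 of them among the 363 of members called in the comparison. Genes called over the whole table went from 2597 to 223 over all tumors, from 3511 to 57 in the carcinosarcomas and from 542 to 0 in the carcinomas with the leukocyte covariate, from 119 to 2330 and from 5 to 1500 in the comparisons with non-TRIM24 tumors without the batch term, and from 99 to 0 between the tumor classes with no filter. Quantile normalization moved the split of higher and lower genes from 1503 and 2008 to 1865 and 1427 in the carcinosarcomas, and from 34 and 85 to 45 and 68 for non-TRIM24 tumors, and the median of all genes from -0.12 to 0.04 and from -0.27 to -0.04. No paired analysis was possible because the replicate names are mouse numbers and the groups compared share none.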

Other observations

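Class I genes outside the 31 members also differed widely between mice, with another division of the mice than in H2-Ea-ps, and are given as values only. H2-Q1 was at 1.86, 0.07, 0.31 and 0.19 TPM in control glands 133, 392, 417_3 and 517_3, at 0.04, 0.38 and 0.28 TPM in carcinosarcomas 64, 567 and 897, at 2.49, 2.25 and 0.53 TPM in carcinomas 89, 273_5 and 3956, and at 1.87, 1.96 and 1.5 TPM in non-TRIM24 tumors 219, FVB001 and FVB002. H2-T-ps, annotated as a pseudogene, was at 23.9, 2.82, 5.14 and 4.61 TPM in the control glands, 2.37, 8.75 and 5.11 TPM in the carcinosarcomas, 29.8, 27.0 and 6.57 TPM in the carcinomas and 33.2, 43.4 and 41.7 TPM in the non-TRIM24 tumors. Control gland 133, carcinomas 89 and 273_5 and the non-TRIM24 tumors were above all other mice in both genes. Interferon gamma, Ifng, which induces genes of both routes, was at 0.38, 0.44, 3.13 and 3.06 TPM in the control glands and 2.96 TPM in carcinoma 89, and at 0.50 TPM or below in every other mouse.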
